A study of Mus musculus with 18 samples.

Results

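The genes described here are 41 interferon response and antigen presentation genes, picked by symbol, and not by a measured value, from the 55401 gene identifiers of the count table, with earlier results of these data known. All 41 were found, and all 41 had enough counts to be tested. RNA sequencing of polyA RNA covered the BNST (the bed nucleus of the stria terminalis), a limbic forebrain nucleus beside the lateral ventricle, and the prelimbic medial prefrontal cortex (mPFC). All mice were male wild-type C57BL/6 animals of 6 to 8 weeks. The formalin groups were taken 24 h after 10 μL of 1% formalin went into the plantar surface of a hind paw, a model of acute pain. The CFA groups were taken 72 h after 10 μL of 50% complete Freund's adjuvant (CFA) at the same site, a model of persistent pain. Control mice had no injection. Each of the 6 groups (3 conditions in each region) held 3 libraries, and by the study's methods both regions were dissected from each brain. Agent and collection time differ together between the pain models and cannot be told apart.

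Interferons are secreted proteins that bind receptors on the cell surface and act through JAK kinases and STAT proteins. Type I interferon leads to a complex containing STAT2 and IRF9 that binds the interferon-stimulated response element (ISRE), whereas interferon gamma acts through the gamma-activated site (GAS). Among the genes switched on are sensors of viral RNA, proteins that block viral replication, and the machinery of MHC class I. In that machinery, the immunoproteasome cuts peptides, the TAP transporter moves them into the endoplasmic reticulum, and a class I heavy chain with beta-2-microglobulin carries them to the cell surface. In the brain, microglia, endothelium and the choroid plexus are known to respond to interferon, and neurons normally show little MHC class I.

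The promoters show what many of these genes have in common. RefSeq promoters (GRCm38.p6, 250 bases before to 50 bases after the start) were matched for 33 of the 41 genes. The ISRE core, GAAA and GAAA with any 2 bases between them, searched on both strands, was present in 15 of the 33 (45.5%), against 3.99% of 27025 genes with a promoter. The GAS core TTCNNNGAA was present in 7 of the 33 (21.2%), against 9.55% of all genes. Copies may overlap each other, and a match of letters is a description and not a binding site. The promoters below belong to Gbp3 (chr3:142559794-142560093, + strand), Ifit3 (chr19:34583279-34583578, + strand), Bst2 (chr8:71537423-71537722, − strand), B2m (chr2:122147437-122147736, + strand), Isg15 (chr4:156200769-156201068, − strand) and Tap1 (chr17:34187306-34187605, + strand). Each is printed 5′ to 3′ along its gene, with ISRE cores in capitals. Gbp3, Ifit3, B2m and Tap1 are shown because calls below rest on them, Bst2 because it had the largest fold difference after formalin, and Isg15 because its promoter held 3 copies while its level passed no test.
Gbp3: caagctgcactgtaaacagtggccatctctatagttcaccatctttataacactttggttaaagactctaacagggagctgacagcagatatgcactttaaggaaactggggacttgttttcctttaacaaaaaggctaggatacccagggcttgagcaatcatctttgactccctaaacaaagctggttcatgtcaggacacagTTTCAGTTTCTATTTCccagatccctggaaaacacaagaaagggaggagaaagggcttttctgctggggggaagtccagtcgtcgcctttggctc
Ifit3: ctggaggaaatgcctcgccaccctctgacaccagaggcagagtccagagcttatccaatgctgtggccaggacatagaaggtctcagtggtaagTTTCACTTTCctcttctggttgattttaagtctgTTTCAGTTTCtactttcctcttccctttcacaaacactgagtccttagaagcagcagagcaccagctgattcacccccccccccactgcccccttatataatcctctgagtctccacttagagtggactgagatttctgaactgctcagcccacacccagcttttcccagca
Bst2: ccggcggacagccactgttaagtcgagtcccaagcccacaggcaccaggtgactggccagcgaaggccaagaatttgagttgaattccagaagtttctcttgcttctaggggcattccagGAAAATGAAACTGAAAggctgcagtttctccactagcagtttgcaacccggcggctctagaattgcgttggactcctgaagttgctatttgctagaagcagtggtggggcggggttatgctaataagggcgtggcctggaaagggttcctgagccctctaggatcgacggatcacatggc
B2m: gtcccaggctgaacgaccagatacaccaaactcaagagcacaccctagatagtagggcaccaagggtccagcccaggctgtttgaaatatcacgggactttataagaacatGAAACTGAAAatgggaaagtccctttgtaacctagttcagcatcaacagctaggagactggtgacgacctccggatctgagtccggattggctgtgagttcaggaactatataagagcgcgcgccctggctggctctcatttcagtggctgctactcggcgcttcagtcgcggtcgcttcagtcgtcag
Isg15: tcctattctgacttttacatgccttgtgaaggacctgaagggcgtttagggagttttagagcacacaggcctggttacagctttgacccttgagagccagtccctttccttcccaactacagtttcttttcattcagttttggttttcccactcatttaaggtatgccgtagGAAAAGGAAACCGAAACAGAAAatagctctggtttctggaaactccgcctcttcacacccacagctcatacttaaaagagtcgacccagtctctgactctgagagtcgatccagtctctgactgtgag
Tap1: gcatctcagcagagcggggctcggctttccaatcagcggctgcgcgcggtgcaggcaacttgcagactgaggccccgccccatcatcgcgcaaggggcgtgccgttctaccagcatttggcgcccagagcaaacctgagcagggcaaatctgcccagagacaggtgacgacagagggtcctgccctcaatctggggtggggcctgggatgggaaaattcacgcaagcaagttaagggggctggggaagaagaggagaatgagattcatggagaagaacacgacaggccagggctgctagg

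Levels are CPM, counts scaled to library size, and between genes they are compared as TPM, which also corrects for transcript length. B2m, the light chain of MHC class I, stood first with a mean TPM of 206 over the 18 libraries. Ifi27, an interferon-inducible membrane protein, followed at 62.8 TPM, the immunoproteasome subunit gene Psmb10 at 47.2, the class I heavy chain gene H2-D1 at 40.9 and the membrane protein gene Ifitm3, which hinders viral entry, at 33.8. The MHC class I transactivator gene Nlrc5 stood last at 0.54 TPM. Transcripts of the interferons themselves were scarcely read: 7 interferon genes, with Ifnb1 and Ifng among them, had 13 counts in all 18 libraries together, and 3 of the 7 had 0. The lowest count of any of the 41 genes in a library was 4.

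The libraries held 14781315 to 23408503 counts. The BNST libraries carried GABAergic markers at 995 to 1759 CPM (summed over 5 genes) against 491 to 595 in the mPFC. The mPFC libraries carried cortical pyramidal markers at 1865 to 2351 CPM against 21.1 to 488 in the BNST. Summed markers of BNST steroid signalling separated the regions less. They were at 65.3 to 74.4 CPM in the BNST controls, 57.3 to 70.1 after formalin and 67.2 to 85.3 after CFA. The mPFC libraries had 50.5 to 62.3 CPM, which overlapped the formalin BNST libraries. Markers of the choroid plexus, the tissue inside the ventricles that makes cerebrospinal fluid, differed widely among BNST libraries. Summed over 10 genes, they stood at 36.5, 749.6 and 70.1 CPM in the controls, at 2941, 8893 and 5748 CPM after formalin, and at 221.3, 17815 and 183.1 CPM after CFA. In the mPFC they stayed between 3.65 and 28.0 CPM. CFA BNST replicate 2 thus stood apart, and the counts for CFA in the BNST are also given without it. No formalin BNST library was within the control range, so no such check exists for formalin. Summed microglial markers overlapped between all BNST groups (378 to 493 CPM). In the mPFC they were at 544 to 595 CPM after formalin, above the 429 to 512 CPM of the controls and the 462 to 493 CPM after CFA. Their part in the mPFC results was not tested.

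**Figure D1:**
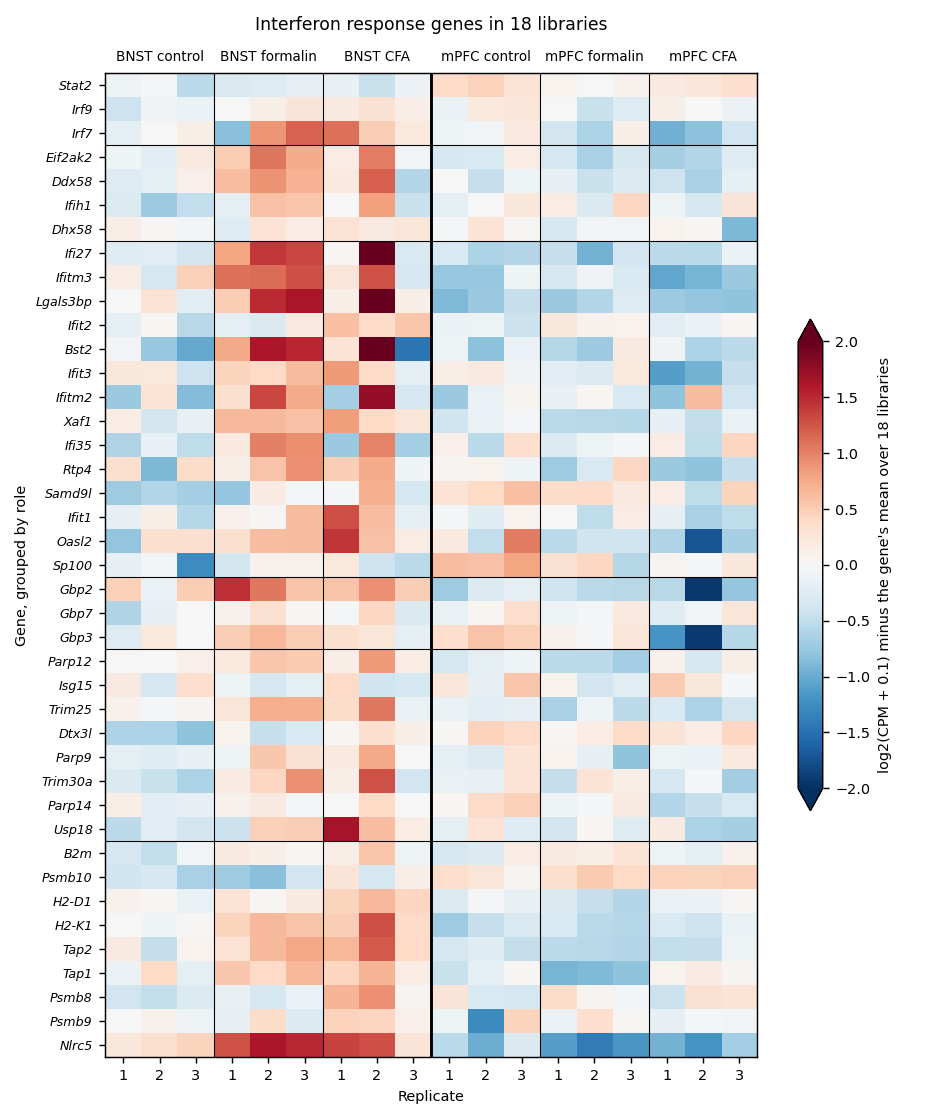
Level of each of the 41 genes (rows, grouped by role) in the 18 libraries (columns, replicates 1 to 3 of each group). Colour is log2(CPM + 0.1) minus the gene's mean over the 18 libraries, with red above and blue below the mean. The red cells gather in the formalin BNST libraries and in CFA BNST replicates 1 and 2, whereas CFA BNST replicate 3 is above all 3 controls for 16 of the 41 genes.

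Across the 41 genes, most BNST levels were higher after either injection than in the controls, and most mPFC levels were not. A gene was called where the adjusted p of edgeR's quasi-likelihood test over 18994 genes was under 0.05 and the log2 fold change was beyond 0.5 in either direction. In the BNST after CFA, 10 of the 41 genes were called, all higher, against a background of 11.9% of all genes tested (4.89% higher). With the 6 libraries of this comparison alone, Dtx3l and H2-D1 were called, and the rest of the 10 were not (adjusted p = 0.057 to 0.18). The alignment names of BNST control replicates 1 and 2 carry another tag than those of all CFA BNST libraries. Treatment and tag were thus unbalanced here, and a fit to the libraries of the common tag leaves 1 BNST control. BNST formalin replicate 1 carries a further tag, and all mPFC libraries carry the common one. The other comparisons that use BNST controls or BNST formalin libraries, also those between regions, are thus unbalanced as well. After formalin none was called in the BNST, against a background of 0.3%, although 22 of 41 were higher at an unadjusted p under 0.05 (background 9.26%) and DESeq2 called 6 (2.15% of all genes). In the mPFC, none was called after formalin (background 0.269%; 2 higher and 5 lower at an unadjusted p under 0.05, against 7.02% and 7.07% of all genes; 0 by DESeq2, against 0.7%). After CFA 1 was called there, lower (background 0.632%), and DESeq2 called 3 (1.38% of all genes).

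The same picture held for the summed level. The 41 genes together made 273, 272 and 266 CPM in the BNST controls, 356, 427 and 434 CPM after formalin, and 367, 568 and 313 CPM after CFA. Neither treated group overlapped the controls. Gene by gene, all formalin libraries lay above all BNST controls for 24 of the 41 (background 11.6%), and all CFA libraries for 15 of the 41 (background 15.4%). Without CFA replicate 2 the latter was 16 of the 41, against 21.6% of all genes. In the mPFC the sum lay between 261 and 306 CPM in all 9 libraries, and the groups overlapped. The median log2 fold change over the 41 genes was 0.51 after formalin and 0.54 after CFA in the BNST, beside −0.04 and 0.01 over all genes tested. Without CFA replicate 2 the median after CFA was 0.29, and that after formalin was 0.52. The CFA median then went from 0.76 to 0.24 for the antiviral effectors and from 0.52 to 0.46 for antigen presentation. In the mPFC the medians over the 41 genes were −0.17 after formalin and −0.11 after CFA. The injected groups of a region share their control libraries, so these medians are not independent of each other. In bulk tissue, fewer cells of a type and less RNA per cell cannot be told apart.

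**Figure D2:**
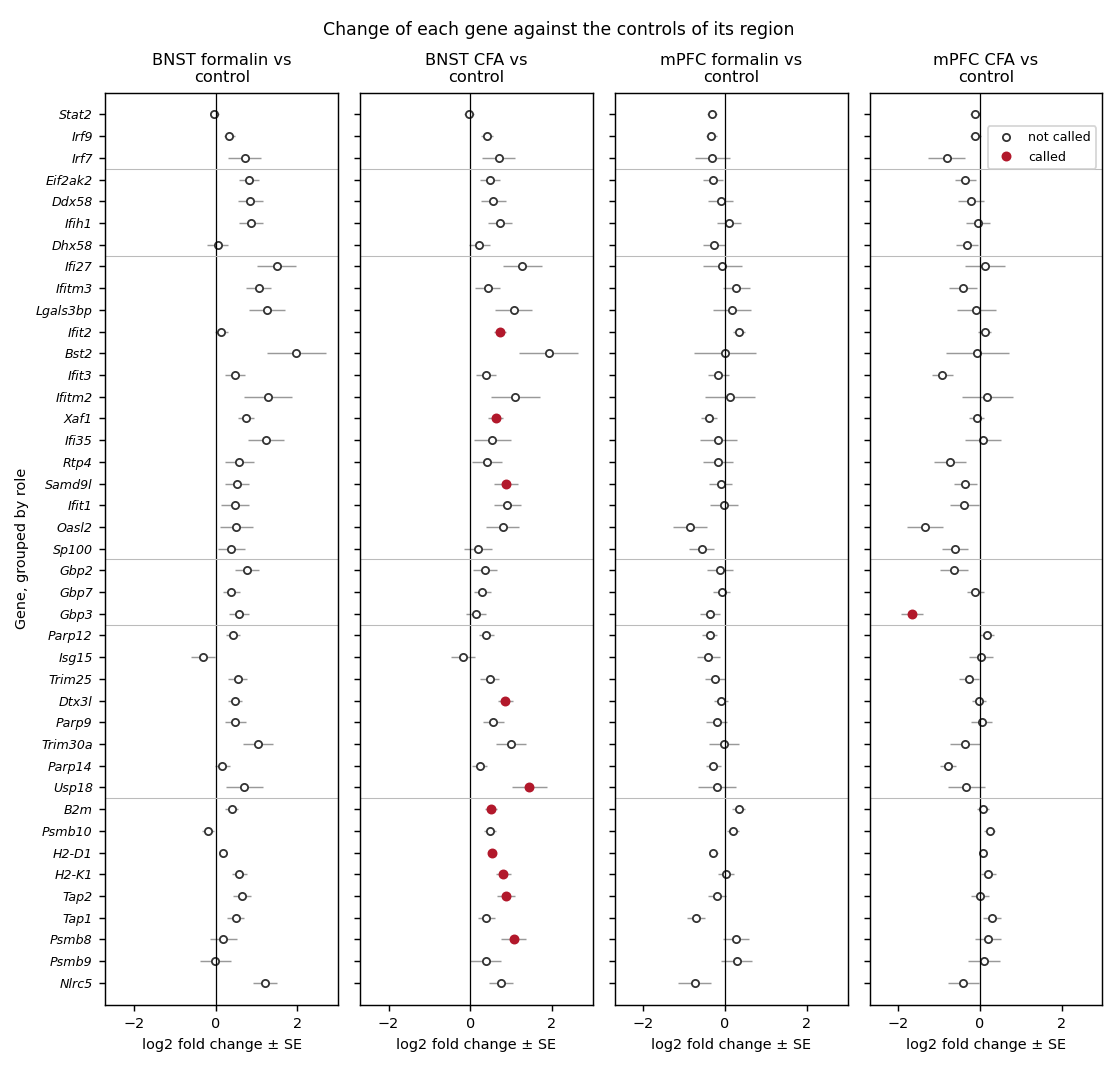
log2 fold change ± SE of each gene against the controls of its region (n = 3 libraries per group), in 4 panels. Filled red points were called and open points were not. The 10 called genes of the BNST after CFA all lie right of 0, and Gbp3 is the called gene of the mPFC after CFA, at −1.65.

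Among the signalling factors, no gene was called against controls in either region. Stat2, the STAT subunit specific to type I and III interferon, was at 24.8, 25.97 and 18.4 CPM in the BNST controls, at 21.7, 22.2 and 23.6 CPM after formalin, and at 23.9, 19.5 and 24.3 CPM after CFA. These groups overlapped. Irf9, the DNA-binding partner of STAT2, was above the controls in every CFA BNST library (13.5 to 15.2 against 9.21 to 11.8 CPM). Its log2 fold change of 0.40 ± 0.14 had an adjusted p of 0.048 but was below the fold limit. Irf7, the factor that amplifies type I interferon production, ranged from 0.53 to 2.68 CPM over the 18 libraries and passed no test.

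None of the 4 RNA sensors was called against controls in the BNST. Eif2ak2, the kinase PKR that stops translation on double-stranded RNA, was at 7.73, 6.97 and 9.35 CPM in the controls and at 11.7, 17.2 and 13.7 CPM after formalin, with no overlap. Its log2 fold change was 0.83 ± 0.24 (adjusted p = 0.11). After CFA it was at 9.05, 16.8 and 7.89 CPM, which overlapped the controls. Ddx58 (RIG-I) and Ifih1 (MDA5), which detect viral RNA in the cytoplasm, had log2 fold changes of 0.85 ± 0.31 and 0.87 ± 0.30 after formalin, with adjusted p of 0.16 and 0.15. In CFA replicate 2, the library richest in choroid plexus markers, they stood at 2.57 and 2.07 times the mean of the other CFA BNST libraries. Dhx58, a related helicase, was at 1.06 to 1.57 CPM after formalin, around the 1.24 to 1.42 CPM of the controls.

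Of the 14 antiviral effectors, 3 rose in the BNST after CFA, where 4.89% of all genes were called higher: Ifit2, Samd9l and Xaf1. Ifit2, one of the IFIT proteins that bind foreign RNA, was at 10.3, 11.9 and 7.92 CPM in the controls and at 17.7, 15.2 and 17.1 CPM after CFA. The groups did not overlap, and the log2 fold change was 0.73 ± 0.15 (adjusted p = 0.003). After formalin it was at 10.3, 9.54 and 13.4 CPM, within reach of the controls, and Ifit2 was lower after formalin than after CFA (−0.58 ± 0.15, adjusted p = 0.017). Ifit2 was called against controls without each of the 18 libraries in turn but not with the 6 libraries of the comparison alone (adjusted p = 0.057), and its call against formalin was lost without CFA replicate 1 or formalin replicate 1 or 2 (adjusted p up to 0.091).

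Samd9l, a growth-restraining antiviral factor, was at 2.29, 2.49 and 2.353 CPM in the controls and at 3.75, 6.31 and 2.96 CPM after CFA. The log2 fold change was 0.87 ± 0.29 (adjusted p = 0.042), and the call was lost without any of 10 of the 18 libraries, with an adjusted p of 0.25 without CFA replicate 2. Xaf1, an antagonist of apoptosis inhibitors, was at 4.57, 3.17 and 3.71 CPM in the controls, at 6.48, 6.50 and 6.21 CPM after formalin and at 7.39, 5.42 and 4.88 CPM after CFA. Both treated groups lay above the controls. The log2 fold change was 0.62 ± 0.18 after CFA (adjusted p = 0.022) and 0.74 ± 0.18 after formalin (adjusted p = 0.079). The CFA call of Xaf1 was lost without CFA replicate 1 (adjusted p = 0.12) and without control replicate 2 or 3.

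Ifi27, Lgals3bp, Bst2 and Ifitm2 differed widely among BNST libraries, and none was called by edgeR with all libraries. With the 6 libraries of the comparison alone, Ifi27 and Bst2 were called after formalin. Ifi27 was at 16.6, 16.8 and 15.4 CPM in the controls, at 34.2, 52.9 and 50.2 CPM after formalin, and at 20.3, 81.8 and 16.01 CPM after CFA. Lgals3bp, a secreted glycoprotein, was at 17.2, 21.1 and 14.8, then 24.7, 48.7 and 53.7, then 18.8, 73.2 and 18.7 CPM in the same order. Bst2 (tetherin), which holds budding virus at the cell surface, was at 1.92, 1.13 and 0.929, then 3.42, 6.34 and 5.91, then 2.43, 11.9 and 0.657 CPM. Ifitm2, a relative of Ifitm3, was at 0.680, 1.47 and 0.619, then 1.53, 3.20 and 2.08, then 0.717, 4.34 and 0.939 CPM. For each of them, the formalin libraries lay above the controls, and CFA replicate 2 was far above its group. These are also the libraries with 2941 or more CPM of choroid plexus markers. Their part in the result was not tested. The log2 fold changes after formalin were 1.49 ± 0.47, 1.26 ± 0.45, 1.98 ± 0.73 and 1.28 ± 0.59, with adjusted p of 0.14, 0.16, 0.17 and 0.24. DESeq2 called Ifi27 and Bst2 after both injections. CFA replicate 2 was the highest BNST library for 21 of the 41 genes. It stood at 3.56 (Ifi35), 2.68 (Trim30a), 2.57 (Ddx58), 2.48 (Ifitm3), 2.07 (Ifih1) and 1.98 (Eif2ak2) times the mean of the other CFA libraries. The formalin means of these genes were 1.77 to 2.37 times the control means.

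**Figure D3:**
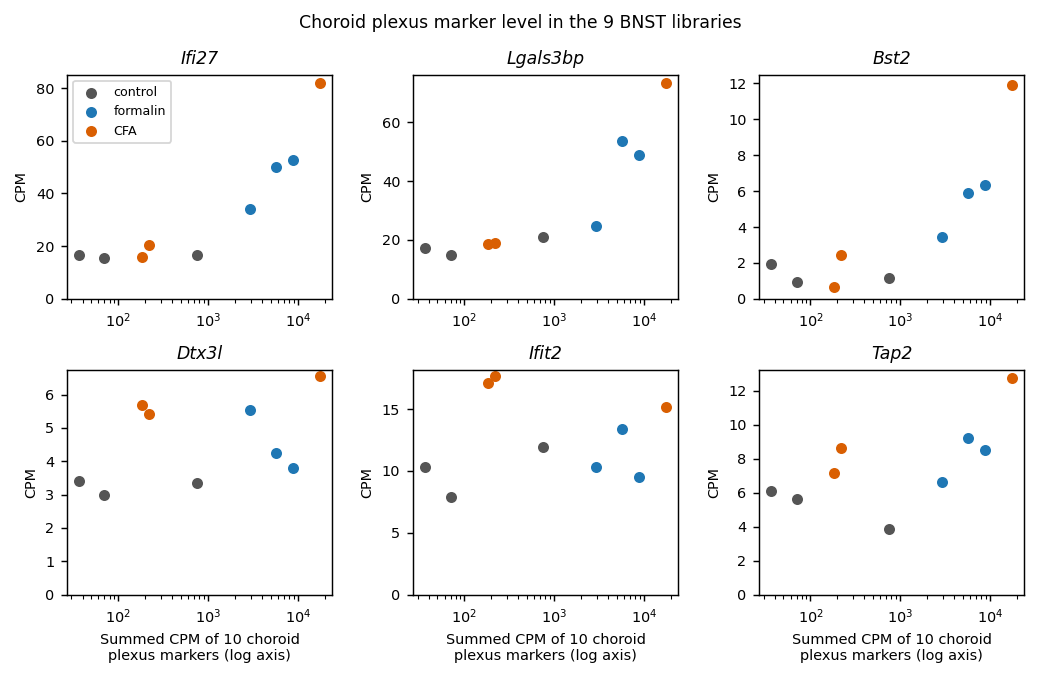
CPM of 6 genes (vertical axes) against the summed CPM of 10 choroid plexus markers (horizontal log axes) in the 9 BNST libraries, 1 point per library. For Ifi27, Lgals3bp and Bst2, the 4 libraries at 2941 or more CPM of the markers hold the 4 highest points. For Dtx3l, Ifit2 and Tap2 the CFA libraries at 183.1 and 221.3 CPM of the markers also lie above all controls. This holds for 16 of the 41 genes, against 21.6% of all genes. In CFA replicate 2, Dtx3l, Ifit2 and Tap2 stand at 1.18, 0.87 and 1.62 times the mean of the other CFA libraries.

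Leaving out CFA BNST replicate 2 moved the counts in both directions. For CFA against controls, 6 genes were then called, against 9.31% of all genes in that fit: Dtx3l, Ifit2, Tap2, Usp18 and Xaf1, which were also called with all libraries, and Psmb10. The choroid plexus markers of the remaining CFA libraries, at 221.3 and 183.1 CPM, were above the controls at 36.5 and 70.1 CPM and below the control at 749.6 CPM. For formalin against controls, 13 were then called, all higher, against 4.66% of all genes: Bst2 (1.98), Ifi27 (1.49), Lgals3bp (1.26), Ifi35 (1.24), Nlrc5 (1.21), Ifitm3 (1.05), Trim30a (1.04), Ifih1 (0.87), Ddx58 (0.85), Eif2ak2 (0.83), Xaf1 (0.74), Tap2 (0.65) and H2-K1 (0.58), with the log2 fold change in parentheses. The formalin and control libraries were the same with and without CFA replicate 2. The filter, the scaling, the spread shared by all libraries and the adjustment were computed anew, with 19395 genes tested in place of 18994. The median log2 fold change of the 41 genes after formalin was 0.51 with it and 0.52 without it. All formalin BNST libraries still held 2941 or more CPM of choroid plexus markers. For formalin against CFA, 10 were called, 8 higher and 2 lower after formalin, against 12.4% of all genes. With all libraries 2 were called, both lower after formalin. Leaving out CFA BNST replicate 3 instead gave 20 called genes for CFA (14.1% of all genes) and 2 for formalin (0.654%).

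The guanylate-binding proteins, large GTPases that attack pathogen vacuoles, held the gene called in the mPFC after CFA. Gbp3 (chromosome 3, 142560026 to 142573209, GRCm38) was at 3.20, 3.80 and 3.54 CPM in the mPFC controls, at 2.70, 2.47 and 3.01 CPM after formalin, and at 1.06, 0.595 and 1.67 CPM after CFA. The 3 groups did not overlap, and all CFA libraries lay lowest. Gbp3 fell after CFA by 1.65 ± 0.27 on the log2 scale (adjusted p = 0.0067). It was also higher after formalin than after CFA (1.29 ± 0.27, adjusted p = 0.025, background 0.932%). The call against controls was lost without CFA mPFC replicate 1, at an adjusted p of 0.053, and the call between the pain models without any of 4 libraries, at up to 0.11. In the BNST, Gbp3 was at 2.10 to 2.95 CPM in the controls, 3.59 to 4.07 CPM after formalin and 2.21 to 3.20 CPM after CFA.

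Gbp2, which had the highest TPM of the 3, was at 1.21, 1.68 and 1.80 CPM in the mPFC controls and at 1.36, 0.463 and 1.16 CPM after CFA, and was not called. In the BNST it was at 2.90, 1.87 and 2.97 CPM in the controls and at 5.83, 4.39 and 3.10 CPM after formalin (0.78 ± 0.29, adjusted p = 0.17). Gbp7 was at 3.15 to 6.45 CPM in all 18 libraries and passed no test. The Gbp genes lie side by side on chromosome 3 and resemble each other, as do the Ifit genes, the Ifitm genes and the class I heavy chain genes, so reads that fit several of them make their single values less certain.

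Among the genes of ISG15 conjugation, ubiquitin and ADP-ribosylation, Dtx3l and Usp18 rose in the BNST after CFA. Dtx3l, an E3 ubiquitin ligase that partners PARP9, was at 3.40, 3.35 and 2.97 CPM in the controls, at 5.54, 3.79 and 4.25 CPM after formalin, and at 5.41, 6.55 and 5.68 CPM after CFA. Neither treated group overlapped the controls. The log2 fold change after CFA was 0.86 ± 0.18 (adjusted p = 0.0023), and the call held without each of the 18 libraries and in all 10 other settings tried. Dtx3l and Parp9 overlap by 682 bases on opposite strands, and the strand setting of the counting is not given in the sources used here.

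Usp18, the protease that removes ISG15 and dampens the type I interferon receptor, was at 0.433, 0.567 and 0.495 CPM in the controls and at 2.32, 1.08 and 0.751 CPM after CFA. Its log2 fold change of 1.44 ± 0.43 (adjusted p = 0.024) was the largest of the called genes. The call was lost without CFA replicate 1, where the level was highest (adjusted p = 0.16), and without control replicate 1 or 3. Isg15, the ubiquitin-like modifier itself, passed no test: it was at 1.67, 1.13 and 1.86 CPM in the controls and at 1.93, 1.08 and 1.13 CPM after CFA. Parp12, the ADP-ribosyltransferase with the highest TPM of this group, was at 11.7, 11.7 and 12.7 CPM in the controls and at 13.0, 21.4 and 13.1 CPM after CFA (0.39 ± 0.17, adjusted p = 0.11).

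Antigen presentation held 5 of the 10 calls after CFA in the BNST, out of 9 genes measured, where 4.89% of all genes were called higher. H2-K1, a classical class I heavy chain, was at 17.6, 16.7 and 17.96 CPM in the controls, at 24.2, 27.7 and 26.2 CPM after formalin, and at 24.8, 43.3 and 22.96 CPM after CFA. Every injected library lay above every control. The log2 fold change was 0.80 ± 0.18 after CFA (adjusted p = 0.0047) and 0.58 ± 0.18 after formalin (adjusted p = 0.12). With the 6 libraries of each comparison alone, H2-K1 was not called after CFA (adjusted p = 0.11) but was called after formalin. Without CFA replicate 2, the change after CFA was 0.46, with an adjusted p of 0.013 but below the fold limit.

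H2-D1, the other classical heavy chain, was at 28.2, 27.2 and 24.3 CPM in the controls and at 36.5, 41.9 and 36.0 CPM after CFA, without overlap (0.52 ± 0.10, adjusted p = 0.0014). Without CFA replicate 2 it stood at 0.45, under the fold limit. B2m was at 36.2, 32.2 and 44.0 CPM in the controls, at 51.5, 49.3 and 46.9 CPM after formalin and at 49.8, 67.2 and 42.5 CPM after CFA. The CFA and control groups overlapped, and the change of 0.51 ± 0.15 (adjusted p = 0.027) was lost without CFA replicate 2 (0.30, adjusted p = 0.13) and without control replicate 1 or 2.

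Tap2, the second subunit of the peptide transporter, was at 6.12, 3.86 and 5.63 CPM in the controls, at 6.60, 8.51 and 9.23 CPM after formalin, and at 8.61, 12.8 and 7.14 CPM after CFA. Both treated groups lay above the controls, and the change after CFA was 0.87 ± 0.21 (adjusted p = 0.0077). It was called without each of the 18 libraries in turn, but not with the 6 libraries of the comparison (adjusted p = 0.12), the 9 of the region (0.059) or the 15 of a common alignment tag (0.069). Psmb8, an immunoproteasome subunit, was at 0.742, 0.680 and 0.805 CPM in the controls and at 1.66, 1.97 and 1.03 CPM after CFA (1.06 ± 0.31, adjusted p = 0.022). This call was lost without CFA replicate 1 (adjusted p = 0.054), CFA replicate 2 (0.10) or control replicate 2 (0.064).

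Psmb10, another immunoproteasome subunit, was at 15.3, 16.1 and 12.9 CPM in the controls, at 12.3, 11.3 and 15.4 CPM after formalin, and at 24.2, 15.8 and 21.97 CPM after CFA. CFA replicate 2, which led for most genes, was the lowest of its group here. Psmb10 was lower after formalin than after CFA by 0.66 ± 0.15 on the log2 scale (adjusted p = 0.0065), and with Ifit2 it made the 2 genes called between formalin and CFA in the BNST, against a background of 6.87%. At an unadjusted p under 0.05, 5 of the 41 were lower after formalin than after CFA, against 17.5% of all genes. The Psmb10 call held without each of the 18 libraries, and was lost with the 6 libraries of the comparison (adjusted p = 0.097) and the 9 of the region (0.086). Against controls its change after CFA was 0.48 ± 0.15 (adjusted p = 0.024), just under the fold limit. Nlrc5, which switches on the class I genes, was at 1.05, 1.13 and 1.24 CPM in the controls, at 2.30, 2.93 and 2.72 CPM after formalin and at 2.43, 2.32 and 1.08 CPM after CFA. The formalin group did not overlap the controls, and the change of 1.21 ± 0.29 had an adjusted p of 0.07.

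**Figure D4:**
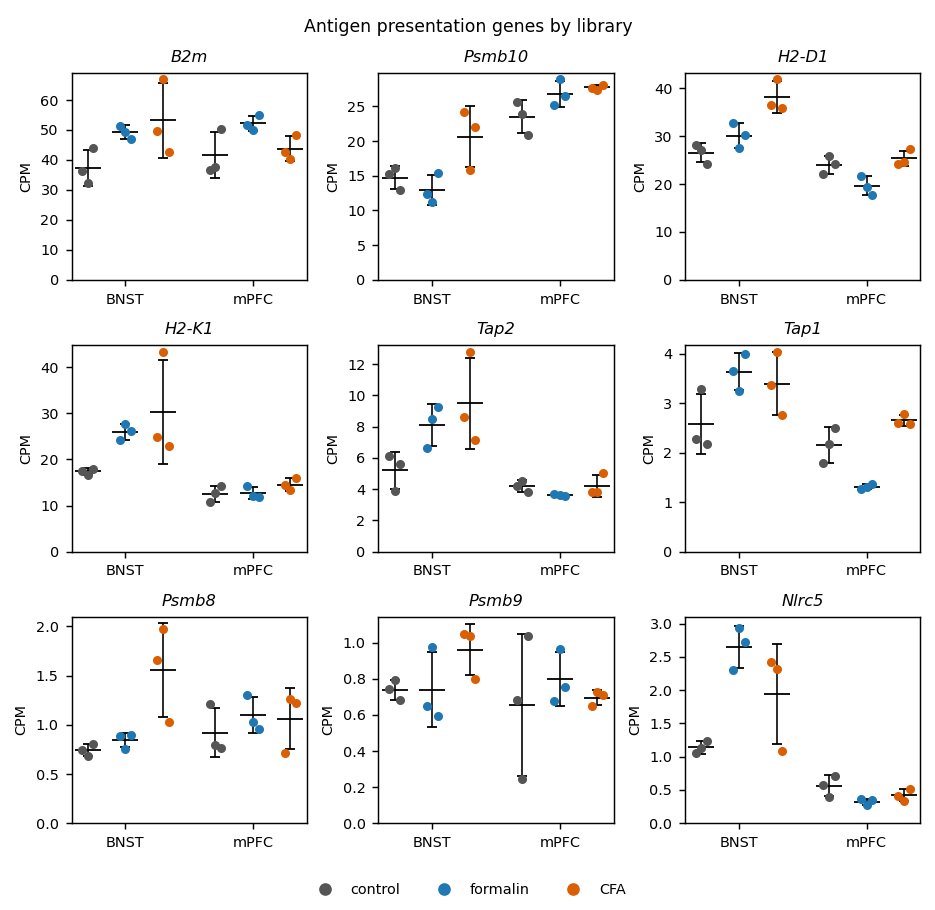
CPM of the 9 antigen presentation genes by library, with the group mean (bar) and SD (whisker), for controls (grey), formalin (blue) and CFA (orange) in the BNST and the mPFC. In the BNST, the CFA points of H2-D1, H2-K1, Tap2 and Psmb8 lie above all control points, and in the mPFC the formalin points of Tap1 (1.26 to 1.37 CPM) lie below all others of that region.

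Tap1, the first transporter subunit, behaved differently in the mPFC. It was at 1.79, 2.17 and 2.51 CPM in the controls, at 1.26, 1.31 and 1.37 CPM after formalin, and at 2.60, 2.78 and 2.57 CPM after CFA. The 3 groups did not overlap. Tap1 was lower after formalin than after CFA by 1.01 ± 0.22 on the log2 scale (adjusted p = 0.028), and lower than in the controls by 0.72 ± 0.22, which was not called (adjusted p = 0.15). The call was lost without any of the 6 libraries compared, with adjusted p up to 0.12. Its neighbour Psmb9, which overlaps it by 212 bases on the other strand, was at 0.247 to 1.04 CPM in all libraries.

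Promoter letters and changes can be set side by side. After CFA in the BNST, 1 of the 15 genes with the ISRE core in the promoter was called (B2m) and 7 of the 18 without it. Of all genes tested, with or without the core, 11.9% were called there and 4.89% were called higher. The median log2 fold changes were 0.49 with and 0.58 without the core. After formalin in the BNST, where none was called, the medians were 0.78 with and 0.49 without the core. These are descriptions of the windows searched and draw nothing about the factor.

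In control mice, 6 of the 41 genes differed between the regions, against a background of 26.6%. Nlrc5 was higher in the BNST than in the mPFC, where it was at 0.578, 0.395 and 0.709 CPM (1.02 ± 0.33, adjusted p = 0.021). Stat2 was lower in the BNST than in the mPFC, where it was at 34.8, 36.5 and 32.2 CPM (−0.58 ± 0.11, adjusted p = 0.00048). Dtx3l (−1.002), Samd9l (−1.12), Sp100 (−1.13), a nuclear body protein, and Psmb10 (−0.67) were also lower in the BNST. With the animal number as a block, Stat2, Dtx3l and Psmb10 were called and Nlrc5, Samd9l and Sp100 were not, with adjusted p of 0.17, 0.098 and 0.051.

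The change after CFA differed between the regions for 5 genes, all with the higher change in the BNST, against a background of 4.17%. Gbp3 had the lowest adjusted p, with a difference of 1.80 ± 0.37 on the log2 scale (adjusted p = 0.0076), and Oasl2, an OAS-like antiviral protein, the largest difference, at 2.15 ± 0.60 (adjusted p = 0.048). Oasl2 was at 1.24, 2.78 and 2.79 CPM in the BNST controls and at 6.13, 3.35 and 2.44 CPM after CFA, and at 2.52, 1.53 and 4.63 CPM in the mPFC controls and 1.42, 0.595 and 1.35 CPM after CFA. The BNST groups overlapped, and the mPFC groups did not. Ifit3, a partner of the IFIT1 protein, differed by 1.30 ± 0.36 (adjusted p = 0.046), the mono-ADP-ribosyltransferase gene Parp14 by 1.003 ± 0.26 (adjusted p = 0.034) and Dtx3l by 0.88 ± 0.24 (adjusted p = 0.046).

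Ifit3 was at 5.10, 5.33 and 4.41 CPM in the mPFC controls and at 2.13, 2.38 and 3.35 CPM after CFA there, with no overlap. Parp14 was at 3.52, 4.49 and 4.80 CPM in the mPFC controls and at 2.25, 2.45 and 2.77 CPM after CFA, also with no overlap. Within the mPFC neither was called by edgeR (adjusted p = 0.11 and 0.062), and both were called by DESeq2 (adjusted p = 0.039 and 0.027). With the animal number as a block, Oasl2 was the gene called among the 5. Without CFA BNST replicate 2, Gbp3 was the gene called, against 3.85% of all genes.

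The formalin change was not called different between the regions for any of the 41 genes (background 0.158%; 16 higher in the BNST at an unadjusted p under 0.05, against 6.44% of all genes; 3 by DESeq2, against 1.47%), and 6 were called without CFA BNST replicate 2 (2.71% of all genes). The contrast of formalin with CFA differed between the regions for Tap1 (1.12 ± 0.30, adjusted p = 0.035) and Ifit2 (−0.80 ± 0.22, adjusted p = 0.037), against a background of 4.17%. In the mPFC, Ifit2 was at 10.8, 10.8 and 8.67 CPM in the controls, at 13.6, 12.4 and 12.2 CPM after formalin, and at 10.05, 10.7 and 12.04 CPM after CFA. It lay highest after formalin in the mPFC and highest after CFA in the BNST. With the animal number as a block, neither gene was called.

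**Figure D5:**
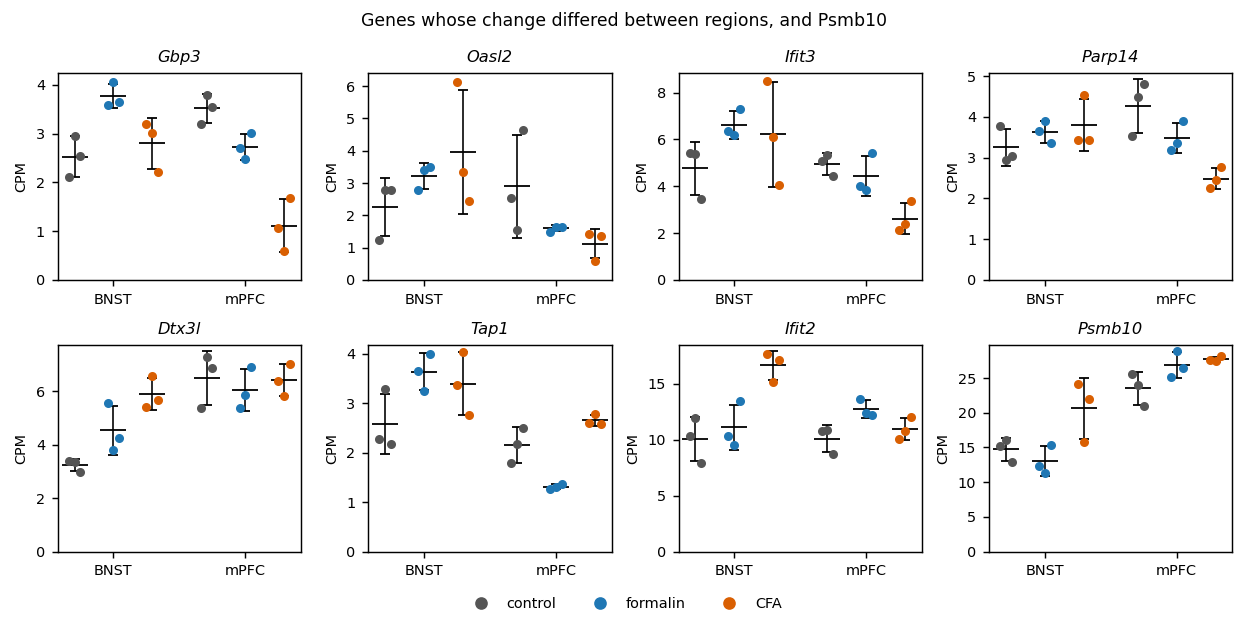
CPM of the 7 genes whose change differed between the regions, and of Psmb10, by library, with the group mean (bar) and SD (whisker). Gbp3, Ifit3 and Parp14 have their lowest points after CFA in the mPFC, Tap1 after formalin in the mPFC, and Ifit2 has its highest points after CFA in the BNST.

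Other genes of the pathway were taken from 9 lists (receptors, kinases, upstream sensors, negative regulators, further interferon-stimulated genes, peptide loading, constitutive proteasome partners, MHC class II and ligands), of which 91 of 110 genes were tested. In the BNST after CFA, 12 of the 91 rose and 2 fell, against 11.9% of all genes called (4.89% higher), and after formalin none was called. Without CFA BNST replicate 2, 5 rose and 1 fell after CFA, against 9.31% of all genes called. In that fit 4 were called after formalin, against 4.66% of all genes. In the mPFC, none was called against controls after either injection. The receptor genes passed no call against controls in either region, and Ifnar1 was at 44.1, 47.3 and 45.3 CPM in the BNST controls and at 40.0, 40.9 and 40.7 CPM after CFA (−0.17 ± 0.06, adjusted p = 0.038). Ifnar2, Ifngr1 and Irf1 had log2 fold changes of 0.19 ± 0.17, 0.22 ± 0.12 and 0.07 ± 0.25 in that comparison.

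In the list of peptide loading and class I genes, 5 of 15 rose in the BNST after CFA, against 4.89% of all genes: the chaperone genes Pdia3 and Calr, the peptide-trimming enzyme gene Erap1, and the nonclassical heavy chain genes H2-T22 and H2-T23. Without CFA replicate 2, H2-T22 and H2-T23 were the 2 called. The antiviral RNA-binding gene Zc3hav1 rose by 1.12 ± 0.20 (adjusted p = 0.00089) and the ISG15 ligase gene Herc6 by 1.06 ± 0.14 (adjusted p = 6e-05). The rise of genes of MHC class II chains rested on CFA replicate 2. H2-Aa was at 0.247, 1.36 and 0.495 CPM in the controls and at 1.27, 7.05 and 1.08 CPM after CFA, which overlapped. Its change was 2.13 ± 0.68 (adjusted p = 0.036), and H2-Eb1 and H2-Ab1 gave 1.95 ± 0.67 and 1.83 ± 0.58 (adjusted p = 0.047 and 0.033). In all 3, CFA replicate 2 was the highest library, and without it none was called (0.71, 0.65 and 0.79, with adjusted p of 0.38, 0.45 and 0.31). H2-DMa, the class II peptide editor, went the other way, at 9.39, 11.2 and 12.3 CPM in the controls and 6.07, 6.11 and 6.43 CPM after CFA (−0.82 ± 0.13, adjusted p = 0.00023), as did Gbp4 (−1.56 ± 0.53, adjusted p = 0.042; 0.13 without CFA replicate 2).

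Markers of other tissue moved with the BNST groups too. Summed striatal markers were at 1187, 1555 and 664 CPM in the controls, at 703, 896 and 642 CPM after formalin and at 203, 403 and 106 CPM after CFA, and summed habenular markers were at 26.4 to 48.3 CPM after CFA against 6.12 to 28.3 CPM in the controls. After formalin, summed ependymal markers were at 187 to 199 CPM against 66.3 to 127 CPM in the controls, oligodendrocyte markers at 9517 to 11760 against 6563 to 9497 CPM, and markers of fibroblasts and meninges at 44.0 to 74.8 against 25.2 to 40.0 CPM, none of them overlapping. In the mPFC, summed endothelial markers were at 160 to 218 CPM in the controls, 110 to 158 CPM after formalin and 119 to 139 CPM after CFA. Their part in the results was not tested. The 10 blood leukocyte markers had too few counts to be tested.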

How the data were processed

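The authors trimmed the reads with Trimmomatic 0.39, aligned them to GRCm38 (mm10) with HISAT2 2.2.1 and deposited raw counts per gene from featureCounts 2.0.1. Whether strand was used, and how reads shared by similar genes were treated, is not given in the sources used here. The count model was edgeR 4.0.16 (under R 4.3.3): filterByExpr (minimum count 10, total 15) kept 18994 genes with 99.88% of the counts, and 1 robust quasi-likelihood model with TMM factors held 18 libraries in 6 groups (12 residual degrees of freedom), with Benjamini-Hochberg adjustment over all genes tested. CPM are TMM-scaled. Symbols, positions and exon lengths for TPM came from GENCODE M21, and promoters from RefSeq. Alternatives were DESeq2 1.42.0, limma 3.58.1 (voom), other filters and scalings, fewer libraries, replicate blocks and leaving out each library. The scripts were tested on simulated data. The 41 genes, the lists and the tests were chosen with earlier results of these data known.

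Levels were named for up to 6 called genes per comparison with the largest change, for the gene with the highest TPM of each role, and for Irf1, Ifnar1, Ifnar2 and Ifngr1. Levels of 1 more gene that this rule names are not reported here. Levels of further genes were given after their values were seen. Animal numbers come from column headers of the study's supplementary tables, which place both regions of 8 brains. Residuals of the same animal correlated at −0.03 to 0.17 between regions (above 0.1 in 2 of 8 pairs). Replicates of a group differed by more than counting noise (chi-square per degree of freedom 3.80 to 79.2).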

Additional observations from a re-analysis of the deposited data

Results flagged for a closer look

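The 7 results below were picked out because the change differed between the BNST and the mPFC by a test of the difference itself (edgeR's interaction contrast, 3 libraries per group, adjusted over all genes tested). The difference of the CFA change, BNST minus mPFC on the log2 scale, was 1.80 for Gbp3 (adjusted p = 0.0076), 2.15 for Oasl2 (0.048), 1.003 for Parp14 (0.034), 0.88 for Dtx3l (0.046) and 1.30 for Ifit3 (0.046). For formalin against CFA it was 1.12 for Tap1 (0.035) and −0.80 for Ifit2 (0.037). Of all genes tested, 4.17% were called in each of these contrasts. Of the genes described here, 12.2% were called for the CFA change and 4.88% for formalin against CFA. The latter share was close to that of all genes, so the number of calls there is not particular to these genes. With the animal number as a block (8 brains with both regions), Oasl2 was the 1 of the 7 still called, with adjusted p of 0.11 for Gbp3, 0.12 for Parp14, 0.22 for Dtx3l, 0.14 for Ifit3, 0.10 for Tap1 and 0.055 for Ifit2. Without the block, the Gbp3 call held without each of the 18 libraries in turn, Oasl2 was lost in 16 of the 18 such fits, Dtx3l in 14, Ifit3 in 13, Tap1 in 11, Ifit2 in 9 and Parp14 in 7. Single outlying libraries were not tested for, since each group held 3.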

How the results depend on the processing

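Counts are of the 41 genes called, set against the counts of the report. The share of all genes called moves with the setting too. For BNST formalin it was 0.3% with all libraries, 4.66% without CFA BNST replicate 2 and 0.654% without CFA BNST replicate 3. For BNST CFA it was 11.9%, 9.31% and 14.1% in the same order. A changed count is thus not particular to the 41 genes, and shares for most other settings are not given here. With the 6 libraries of a comparison alone in edgeR, the count became 3 for BNST formalin, 2 for BNST CFA, 0 for BNST formalin against CFA, 3 for mPFC CFA and 5 for mPFC formalin against CFA, and with the 9 libraries of the region it became 4, 0, 4 and 5 for the last 4 of these. With all 18 libraries, BNST formalin against CFA had 5 genes at an unadjusted p under 0.05 and 2 called by DESeq2. DESeq2 gave 6 for BNST formalin, 3 for mPFC CFA and 3 for the region difference of the formalin change. Limma-voom gave 1 for mPFC formalin against CFA and 2 for the region difference of the CFA change. No filter on low counts gave 1 and 2 for these, and 1 for the region difference of formalin against CFA. Without the 3 libraries whose alignment names carry another tag (BNST control replicates 1 and 2 and BNST formalin replicate 1), which leaves 1 BNST control library whose spread is taken from the other groups, BNST CFA had 4, and the median log2 fold change was 0.68 for BNST formalin and 0.88 for the region difference of the formalin change. The animal number as a replicate block left 3 for the regions in controls, 1 for the region difference of the CFA change and 0 for that of formalin against CFA. Replicate numbers of the titles were not taken to pair the samples. Residuals of the same number correlated at −0.19 to 0.31, above 0.1 in 4 of 18 pairs. Libraries of the same animal gave −0.03 to 0.17, within that range, so these correlations cannot tell paired from unpaired libraries. As a replicate block, the title numbers left 1 for mPFC formalin against CFA.

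Leaving out each library in turn gave 6 to 20 for BNST CFA, 0 to 13 for BNST formalin, 1 to 10 for BNST formalin against CFA, 0 to 2 for mPFC CFA, 0 to 3 for mPFC formalin against CFA, 3 to 8 for the regions in controls, 1 to 7 for the region difference of the CFA change, 0 to 6 for that of formalin and 0 to 6 for that of formalin against CFA. The lowest BNST CFA count came without CFA replicate 2 or control replicate 3, and the highest without CFA replicate 3. The medians ran from 0.29 to 0.72 for BNST CFA, 0.45 to 0.61 for BNST formalin, −0.17 to 0.11 for BNST formalin against CFA, −0.17 to 0.00904 for the regions in controls, −0.18 to −0.05 for mPFC CFA, −0.20 to −0.11 for mPFC formalin, 0.01 to 0.10 for mPFC formalin against CFA, and 0.43 to 1.04, 0.67 to 0.90 and −0.21 to 0.16 for the region differences of CFA, of formalin and of formalin against CFA. The cause was not tested. The counts of other pathway genes and of genes whose groups do not overlap, without CFA BNST replicate 2, were added after seeing the data. No called gene reversed its direction. With 3 libraries per group, genes of few counts such as Usp18, Psmb8, Psmb9, Nlrc5 and Gbp3 are measured least precisely.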
